A study of Mus musculus with 5 samples.

Results

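Histone-high cycling T cells are T cells of the injured mouse kidney that carried RNA of genes used in copying chromosomes and in dividing. They are judged by RNA alone, and whether each was in the cycle at capture was not measured. They were chosen by 3 conditions on their UMIs (unique molecular identifiers, each the count of 1 captured RNA molecule) in each of 5 single-cell libraries. A cell had to hold at least 1 UMI of Cd3e, a signalling chain of the T cell receptor, at least 1 of Mki67, the coat protein of mitotic chromosomes, and a UMI of at least 3 of the histone genes Hist1h1b, Hist1h3c, Hist1h2ae, Hist1h2ab and Hist1h2ap. Of 38417 cells that passed the quality filter, 29749 had Cd3e, 9906 of these also had Mki67, and 1674 met all conditions and are called members below. Members were 5.63% of the Cd3e cells and 4.36% of all retained cells. Members were thus selected on the measured counts of these 7 genes, so the levels of its genes and of other cycle genes in members against other cells are description only, without a test.

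The series sorted CD4 T cells from kidneys of 10-week-old mice in which the blood flow of 1 kidney had been stopped and then restored (unilateral ischemia-reperfusion injury), and read their RNA by droplet 3′ sequencing. The 3 libraries labelled knockout came from Il1rl1fl/fl Foxp3YFP-Cre mice and the 2 labelled control from Il1rl1fl/fl mice; all mice thus carry loxP sites in Il1rl1, the gene of ST2, through which cells sense interleukin 33. Cre is made under Foxp3, the master factor of regulatory T cells (Tregs), so it is placed in Tregs, whereas most members had no Foxp3 UMI. The Foxp3YFP-Cre allele is in the knockout group alone, so the deletion and the allele itself cannot be told apart. The labels leave unstated whether the libraries are of separate animals, and the p-values below measure only the spread between these libraries.

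A dividing cell copies its DNA in S phase and must wrap the new strands in new histones at once. The messenger RNAs of the replication-dependent histones are made almost only then, and most end in a short stem-loop instead of the poly(A) tail that ends other messages; the stem-loop binding protein SLBP holds it during processing and translation. Mitosis follows after a gap phase, and it needs cyclins, kinases and spindle proteins whose RNAs build up late in the cycle. Effector T cells that have met antigen divide in this way in inflamed tissue.

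The stem-loop is shown because it sets these messages apart and because 4 of the 5 histone genes of the rule carry one. In the sequences, read 5′ to 3′ on the coding strand from the GENCODE M21 transcripts (genome build GRCm38, which is mm10), capitals mark the 16 bases of the stem-loop.
Hist1h2ap: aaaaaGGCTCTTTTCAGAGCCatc
Hist1h2ae: acaaaGGCTCTTTTCAGAGCCatt
Hist1h2ab: acaaaGGCTCTTTTCAGAGCCacc
Hist1h3c: aaaaaGGCTCTTTTAAGAGCCacc
They lie at chr13:21833026-21833049 (minus strand) for Hist1h2ap, chr13:23570665-23570688 (minus strand) for Hist1h2ae, chr13:23751567-23751590 (plus strand) for Hist1h2ab and chr13:23745044-23745067 (minus strand) for Hist1h3c. All are in the part of the transcript after the coding sequence. The annotated Hist1h2ap transcript goes on for 3 bases after the stem-loop, that of Hist1h2ab for 11, that of Hist1h3c for 74 and that of Hist1h2ae for 151. The annotated transcript of Hist1h1b, a linker histone H1 gene at chr13:21779883-21780625, holds no match. The histone 3′ stem-loop consensus, searched on the transcript strand only, was found in 69 of 141767 transcripts (0.0487%), of 59 genes, 46 of them among the 67 replication-dependent histone genes in the files.

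The deposited counts summed to 41153835, 60421178 and 31104939 UMIs in knockout 1, 2 and 3 and to 152275841 and 46383793 in control 1 and 2. Control 1 was thus the deepest library, and histone genes in it stood apart. Members were large: their median UMI totals were 18951, 12834 and 10989 in the knockout libraries and 33059 and 11105 in the controls, 2.44 to 2.93 times the median of all retained cells of the same library. T cells without Mki67 had medians of 7501, 4531 and 4042 in the knockout libraries and 12947 and 4087 in the controls. Since detection of a gene rises with depth, shares of cells with a UMI are given below after every cell was thinned to the same number of UMIs. Only 15 members had a barcode that another library also held. No doublet caller was run, and doublets of 2 T cells cannot be told from 1 large cell here.

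The sort and the T cell label were checked against markers. After thinning to 4000 UMIs per cell, Cd4 was detected in 59.9%, 70.2% and 63.1% of members in the knockout libraries and in 58.7% and 65.5% in the controls. A UMI of Cd8a or Cd8b1, the CD8 coreceptor chains, was present in 228 of the 1674 members without thinning. These were 8.33%, 12.2% and 9.83% of members in the knockout libraries and 23.2% and 9.16% in control 1 and 2, so control 1 was highest. Transcripts of non-T cells made up at least 0.5% of a member's UMIs in 10, 40 and 54 members (7.58%, 9.39% and 12.9%) of the knockout libraries and in 16 and 20 (3.76% and 7.33%) of the controls. In T cells without Mki67 the same limit was met by 4.22%, 4.12% and 4.29% of cells in the knockout libraries and by 3.18% and 6.09% in the controls. That limit was set after the data were seen. A looser limit, UMIs of at least 2 of 43 non-T marker genes, was met by 1125 of the 1674 members: 68.2%, 60.6% and 58.3% in the knockout libraries and 90.4% and 54.6% in the controls. Detection of markers rises with depth, and control 1 was the deepest library.

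Members made up 3.84%, 5.46% and 11.0% of Cd3e cells in knockout 1, 2 and 3 and 5.1% and 4.29% in control 1 and 2. Knockout 3 stood above the rest, the other knockout libraries lay on either side of the controls, and the groups overlapped. The exact 95% binomial intervals, which cover counting error only, were 3.22 to 4.54%, 4.97 to 5.99% and 10.0 to 12% in the knockout libraries and 4.64 to 5.60% and 3.802 to 4.81% in the controls. The mean was 6.76% ± 3.74 in knockout (SD, n = 3) and 4.70% ± 0.578 in control (SD, n = 2), a difference of 2.07 percentage points (p = 0.8, two-sided exact permutation test over libraries, whose smallest possible p with 3 against 2 libraries is 0.2). Without knockout 3 the difference was −0.04 percentage points, so its sign rests on that library.

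The share depended on depth and on which histone genes were asked for. With each cell thinned to 2000 UMIs, members were 1.07%, 2.81% and 4.85% of Cd3e cells in the knockout libraries and 2.58% and 2.01% in the controls (p = 0.8, exact permutation test). Thinning left out 335, 1618 and 832 retained cells of any type below that depth in the knockout libraries and 296 and 1816 in the controls. A gate of at least 2 of Hist1h1b, Hist1h1d and Hist1h3c, chosen after the data were seen and called the even-histone gate, was also used. At 2000 UMIs it gave 3.05%, 4.29% and 9.26% in the knockout libraries and 2.84% and 3.58% in the controls (p = 0.4, exact permutation test). Hist1h1b and Hist1h3c are also genes of the rule. In members these genes had 3314, 1071 and 1058 CPM in knockout 3, 2081, 796 and 629 CPM in knockout 1 and 3316, 1038 and 973 CPM in control 2. The gate is therefore no independent check on the place of knockout 3. Knockout 3 was highest under all 3 measures. Of the Mki67 T cells alone, members were 11.3%, 16.2% and 27.9% in the knockout libraries and 14.2% and 16.9% in the controls, with knockout 3 again highest.

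**Figure D1:**
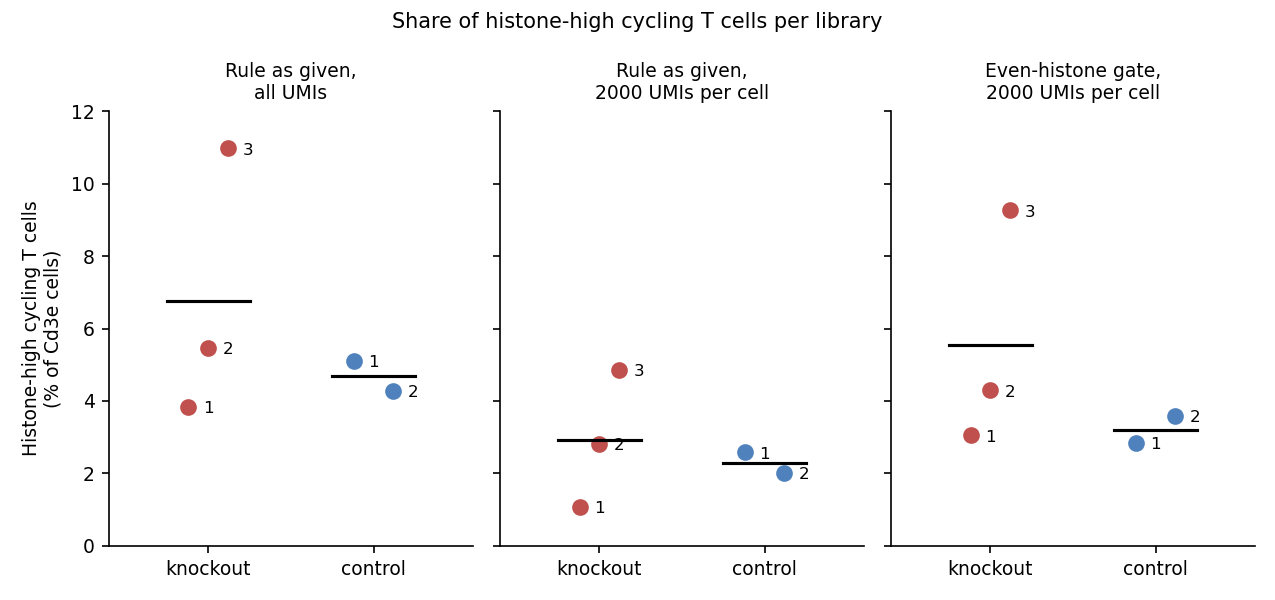
Share of histone-high cycling T cells among Cd3e cells (percent, vertical axis) in each library (numbered points, with lines as group means). Panels give the rule with all UMIs, the rule with 2000 UMIs per cell, and the even-histone gate (Hist1h1b, Hist1h1d and Hist1h3c) with 2000 UMIs per cell. Knockout 3 is the highest point in every panel (11.0%, 4.85% and 9.26%), whereas knockout 1 lies below or between the controls and knockout 2 above them.

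Within the rule, 739 members had all 5 histone genes, 601 had 4 and 334 had 3. Just outside it, 554 Mki67 T cells had 2 of the 5 genes, 1577 had 1 and 6101 had none. The split differed between libraries. In knockout 3, 65 of 417 members had all 5 genes, whereas in control 1 286 of 426 did. A single Mki67 UMI carried 29 members over that threshold.

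Against T cells without Mki67, the RNA of members was led by genes of mitosis, histones and DNA synthesis, in all 5 libraries alike. Of 7131 genes with at least 20 CPM (UMIs of a gene per 1000000 UMIs, summed over the cells of a class) in either class, 463 were more than 2-fold higher in members in 5 of 5 libraries and 16 were more than 2-fold lower in 5 of 5. The count of genes on the same side in all 5 libraries, whatever the size, was 2353 higher and 2592 lower. These lists of genes follow from the rule and were not tested.

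Histone genes come first. Most of their messages lack a poly(A) tail, and the part that was captured was not measured, so histone UMIs here and below need not follow the level of histone RNA. All 41 replication-dependent histone genes that reached 20 CPM, of 67 in the files, were higher in members in 5 of 5 libraries, with a median difference of 5.02 on the log2(CPM + 0.5) scale. Hist1h1b, a linker histone that binds where DNA enters the nucleosome, had 2081, 2675 and 3314 CPM in members of the knockout libraries and 2251 and 3316 CPM in those of the controls. Hist1h3c, which encodes core histone H3, had 629, 931 and 1058 CPM in the knockout libraries and 892 and 973 CPM in the controls. In T cells without Mki67, Hist1h1b was between 10.4 and 30.1 CPM and Hist1h3c between 0.46 and 2.57 CPM in the 5 libraries. All histone genes together made up a median of 1.20%, 1.89% and 1.70% of a member's UMIs in the knockout libraries and 1.19% and 1.82% in the controls. The lower quartile was 0.604%, 0.863% and 0.988% in the knockout libraries and 0.229% and 1.07% in control 1 and 2. Control 1 thus held members with few histone UMIs for their size, and the part of its depth in admitting them was not tested.

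The partners that handle new histones were also higher in members, by less. Of 13 such genes at 20 CPM or more, 13 were higher in 5 of 5 libraries, with a median log2 difference of 1.35. Slbp, the stem-loop binding protein, had 222, 192 and 240.2 CPM in members of the knockout libraries and 235 and 226 CPM in those of the controls, against 53.2 to 64.1 CPM in T cells without Mki67. Asf1b, a chaperone that hands H3 and H4 to the assembly machinery, had 153, 118 and 147 CPM in knockout members and 127 and 172 CPM in control members, against 3.90 to 5.65 CPM without Mki67. Npat, the factor that switches on histone gene transcription, differed least of these, by 0.58 in the median on the log2 scale.

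DNA replication genes were high throughout. All 31 DNA synthesis genes and all 21 licensing genes at 20 CPM or more were higher in members in 5 of 5 libraries, with median log2 differences of 2.22 and 2.25. Rrm2, the regulated subunit of the enzyme that makes deoxynucleotides, had 359, 256 and 299 CPM in members of the knockout libraries and 291 and 334 CPM in those of the controls, against 2.88 to 3.86 CPM without Mki67. Mcm5, a part of the helicase that opens the double helix, had 79.6, 85.6 and 96.2 CPM in knockout members and 99.1 and 119.98 CPM in control members, against 13.0 to 21.2 CPM without Mki67. Set against T cells with at least 3 licensing genes that were not members (3308 cells), the licensing list differed by 0.26 and the DNA synthesis list by 0.54 in the median, whereas the histone list differed by 4.34 and the mitosis list by 2.92. Members thus differed from licensing-gene cells mainly in histone and mitosis RNA; this contrast too was made by the rule.

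Of 69 genes of G2 and mitosis, 68 were higher in members in 5 of 5 libraries and 1 was lower, with a median log2 difference of 5.29. Hmmr, a spindle-assembly protein, had the highest minimum over libraries of all ranked genes (the genes of the rule were left out of the ranking), with 231, 179 and 194 CPM in members of the knockout libraries and 226 and 207 CPM in those of the controls, against 0.09 to 0.67 CPM without Mki67. Ccna2, the cyclin of S phase and G2, had 202, 165 and 176 CPM in knockout members and 185 and 195 CPM in control members. Kif4, a chromosome motor, had 300.1, 261 and 262 CPM in knockout members and 235 and 260 CPM in control members. Esco2, Bub1, Nusap1, Aspm, Birc5, Cenpf, Nuf2 and Ube2c were among the leading genes too, several of them proteins of sister chromatids, kinetochores or the spindle. Stmn1, a regulator of microtubules, and all the other 14 chromatin and cytoskeleton genes of proliferation followed, with a median of 2.71.

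Genes of rest and of naive or memory T cells were lower in members. All 12 naive and memory genes were lower in 5 of 5 libraries (median log2 difference −1.24), as were 13 of 18 genes that brake the cycle or mark quiescence. Ccr7, the receptor that guides T cells to lymph nodes, had 18.6, 13.3 and 36.1 CPM in members of the knockout libraries and 23.5 and 38.8 CPM in those of the controls, against 54.2, 27.7 and 78.0 CPM (knockout) and 77.1 and 108 CPM (control) without Mki67. Btg1, an inhibitor of proliferation, had 301, 299 and 294 CPM in knockout members and 257 and 252 CPM in control members, against 642 to 691 CPM without Mki67. Of these 18 genes, 4 were higher in members in 5 of 5 libraries. Cdkn2c and Cdkn1a, which encode inhibitors of cyclin-dependent kinases, were higher in members, with median log2 differences of 3.15 and 2.08. Interferon-response genes were lower in 5 of 5 libraries for 14 of 19 (median −0.41), and activation genes for 15 of 21 (median −0.39).

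**Figure D2:**
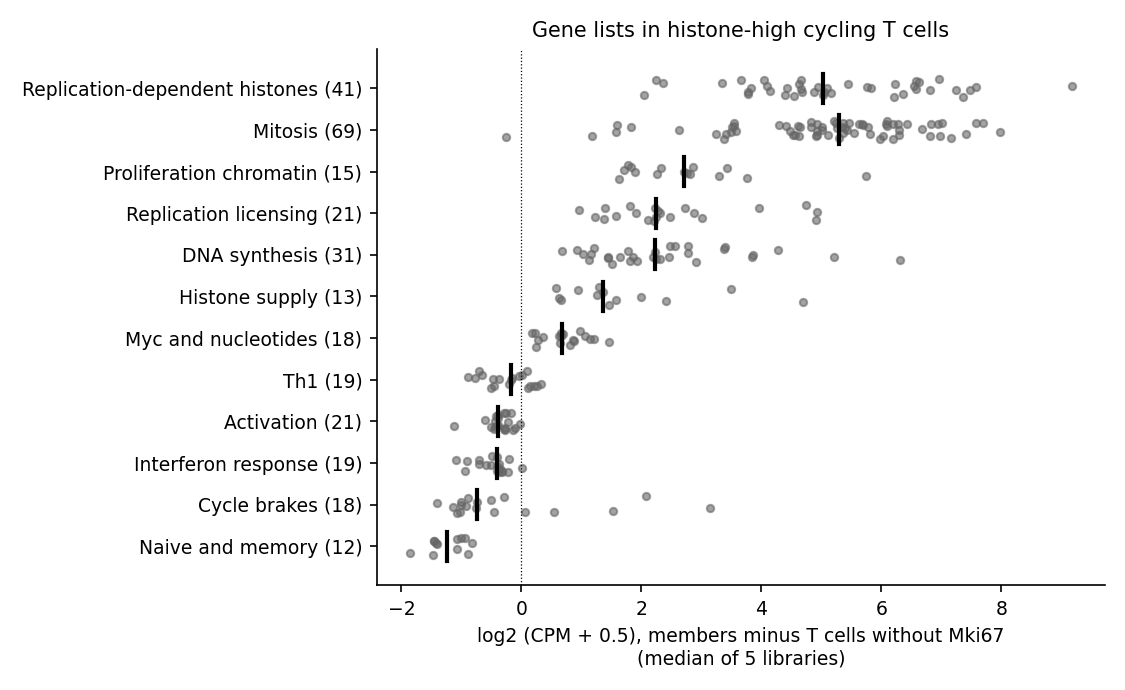
Each dot is a gene of at least 20 CPM in either class; the horizontal axis gives members minus T cells without Mki67 in log2(CPM + 0.5), as the median over the 5 libraries, and the bars are list medians (number of genes in brackets). Mitosis (5.29) and histone (5.02) genes lie furthest right, and naive and memory genes (−1.24) lie left of 0.

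Members differed in which cycle genes were detected. At 4000 UMIs per cell, cells were sorted by whether at least 2 of 6 replication genes (Pcna, Tyms, Rrm2, Mcm3, Mcm5, Mcm6) and at least 2 of 6 mitosis genes (Ccnb1, Ccnb2, Cdc20, Plk1, Aurka, Ube2c) were detected, a split chosen after the data were seen. Replication genes alone were found in 35.6%, 33.7% and 36.5% of members in the knockout libraries and in 33.5% and 41.0% in the controls. Both sets were found in 45.5%, 38.7% and 39.2% in the knockout libraries and in 32.5% and 38.3% in the controls. Mitosis genes alone were found in 11.4%, 13.8% and 17.2% in the knockout libraries and in 15.9% and 12.3% in the controls. Neither set was found in 7.58%, 13.8% and 7.14% in the knockout libraries and in 18.1% and 8.43% in the controls, where control 1, the deepest library, was highest. The replication-alone and mitosis-alone shares overlapped between groups, whereas the share with both was higher in the 3 knockout libraries than in the 2 controls, a difference that was not tested. DNA content was not measured, so these are gene combinations and not phases. A gene can go undetected at 4000 UMIs, and how far this shaped the groups was not measured.

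Captured histone UMIs were most numerous in members that carried both sets. Their median was 62.5, 106 and 91 histone UMIs of 4000 in the knockout libraries and 120.0 and 93.5 in the controls. Members with replication genes alone had 35, 59 and 56 histone UMIs in the knockout libraries and 33 and 58 in the controls. Members with mitosis genes alone had 36, 51.5 and 64.5 in the knockout libraries and 16 and 71 in the controls, and those with neither had 8 to 27. The share of a cell's UMIs in histone genes went with its share in mitosis genes (Spearman rho 0.542 to 0.749 over the members of each library) more than with DNA synthesis genes (0.334 to 0.511). DNA synthesis and mitosis genes were weakly related (0.0356 to 0.298). These correlations are across cells that share a library and a total, and are descriptions.

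**Figure D3:**
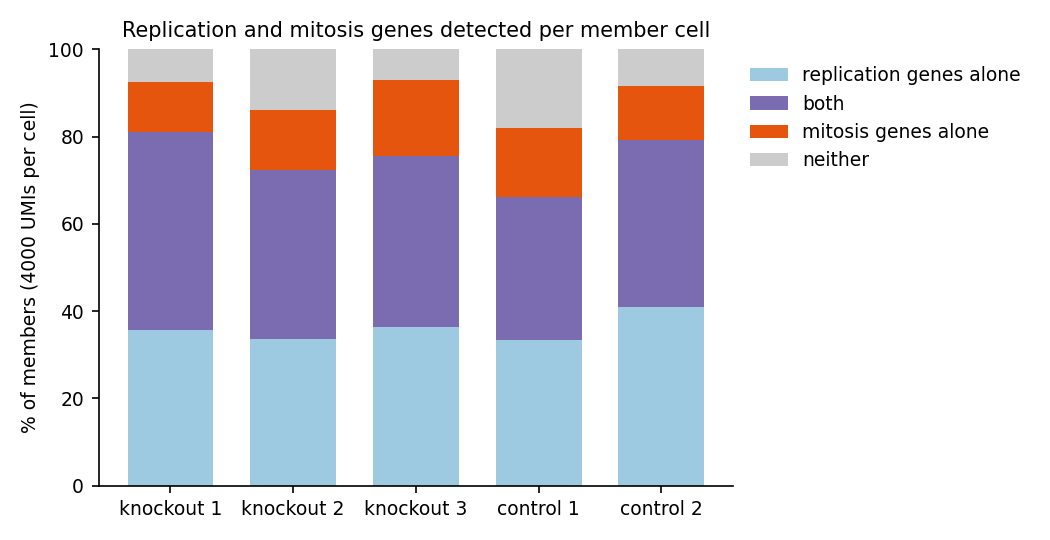
Percent of members (vertical axis, cells thinned to 4000 UMIs) in each library in which at least 2 of 6 replication genes alone, both gene sets, at least 2 of 6 mitosis genes alone, or neither were detected. The group with both sets takes 45.5%, 38.7% and 39.2% in the knockout libraries and 32.5% and 38.3% in the controls.

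Single cycle genes were detected in overlapping shares of members in both groups. Top2a, the enzyme that untangles replicated DNA, was detected at 4000 UMIs in 94.7%, 96.2% and 96.6% of members in the knockout libraries and in 82.0% and 96.6% in the controls, and in 11.6 to 17.1% of T cells without Mki67. Control 1 was the low library, and the others lay within 94.7 to 96.6%. Ccnb1, the mitotic cyclin, was detected in 18.9%, 26.7% and 21.7% of members in the knockout libraries and in 22.6% and 21.1% in the controls. Plk1, a mitotic kinase, was detected in 25%, 32.7% and 34.0% in the knockout libraries and in 25.4% and 33.7% in the controls.

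Control 1 differed from the other libraries in histone genes. Hist1h2ap, a core histone H2A gene, had 32.9, 79.9 and 19.6 CPM in members of the knockout libraries and 818 and 45.3 CPM in those of control 1 and control 2. Control 1 was 18.4 times the mean of the other 4 libraries, which spanned 19.6 to 79.9 CPM. Hist1h2ae, also an H2A gene, had 151, 332 and 153 CPM in knockout members and 1051 and 280.1 CPM in control members, a ratio of 4.59. Hist1h2ab had 124, 212 and 208 CPM in knockout members and 638 and 224 CPM in control members, a ratio of 3.33. The 2 remaining genes of the rule, Hist1h3c and Hist1h1b, had ratios of 0.99 and 0.79.

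The ratios differed by histone family. In control 1, 16 of 41 histone genes (39.0%) were more than 2 times the mean of the other libraries, against 34 of all 6796 genes compared (0.5%). The median ratio was 2.91 over 11 H2A genes, 1.91 over 6 H4 genes, 1.28 over 12 H2B genes, 0.99 over 7 H3 genes and 0.79 over 5 H1 genes. These counts and medians include the genes of the rule, on whose UMIs members were chosen. Of these, Hist1h2ap, Hist1h2ae and Hist1h2ab are among the H2A genes and raise their median. The H2A genes that the rule did not use ran from 0.88 (Hist1h2ak) to 5.16 (Hist1h2ai). Summed over all 41 genes, histone RNA was 10641, 15745 and 15414 CPM in members of the knockout libraries and 16447 and 16187 CPM in those of the controls, so control 1 did not stand apart in the sum. In the other Mki67 T cells Hist1h2ap was also higher in control 1, by a ratio of 9.92. Many core histone genes have near-identical coding sequences, and how the counting shared their reads is not given in the sources used here, so levels of single histone genes are uncertain. Library depth moved with this difference, and its part in it was not tested.

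**Figure D4:**
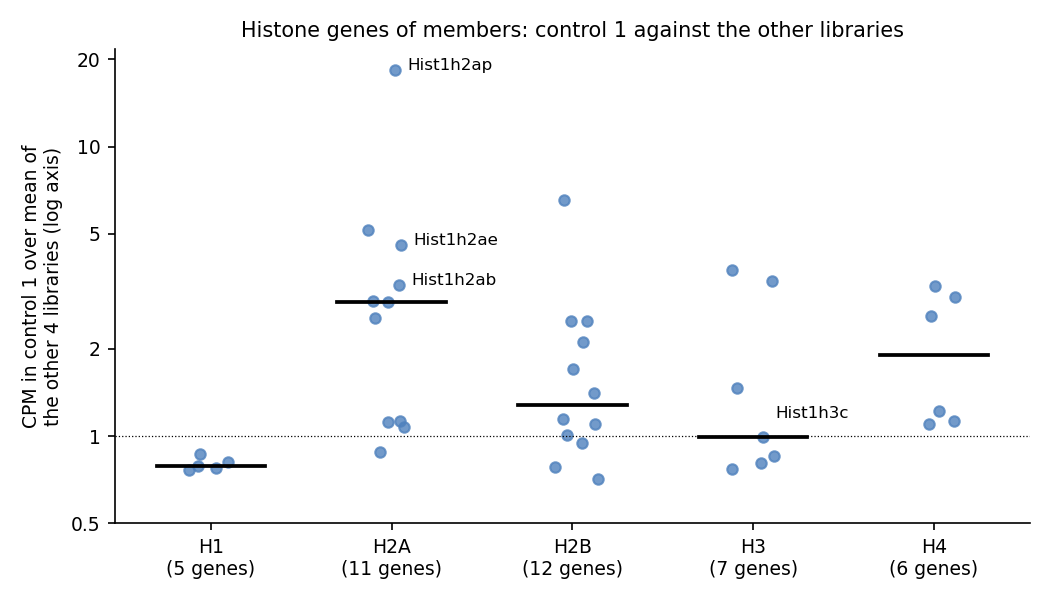
Ratio of the CPM of each of 41 histone genes in members of control 1 to the mean of the other 4 libraries (log axis), by histone family, with the family median as a line and 4 genes of the rule named. Hist1h2ap lies highest at 18.4, the H2A median (genes of the rule included) is 2.91, and all 5 H1 genes lie below 1.

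The targeted gene was looked at before the genotypes were compared. Il1rl1 had 51.8, 28.0 and 18.7 CPM in members of the libraries labelled knockout and 18.7 and 11.9 CPM in those labelled control, where knockout 3 and control 1 were level and knockout 1 was highest. The log2 fold change was 0.93 (SE 0.38, edgeR adjusted p = 0.772), so it was not lower in the knockout libraries. In members with a Foxp3 UMI (16, 71 and 38 cells in the knockout libraries, 58 and 33 in the controls), Il1rl1 had 48.7, 32.3 and 19.0 CPM in the libraries labelled knockout and 78.8 and 20.8 CPM in those labelled control, and the groups overlapped. In members without a Foxp3 UMI it had 52.6, 26.5 and 18.6 CPM in the libraries labelled knockout and 4.66 and 10.0 CPM in those labelled control, with no overlap. This was not particular to members. All Cd3e cells without a Foxp3 UMI had 56.8, 34.6 and 25.3 CPM in the libraries labelled knockout and 8.85 and 9.67 CPM in those labelled control. The labels do not say which exons are flanked by loxP sites, and reads from the 3′ end say nothing about a deletion that lies elsewhere in the gene. Every direction below is therefore that of the libraries as labelled.

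Markers of helper types were compared at 4000 UMIs per cell, beside Cd3e-negative cells with at least 2 C1q genes, called macrophages here. They served as a measure of free RNA, but whether their T cell transcripts are free RNA was not tested. Before thinning there were 64, 91 and 90 of them in the knockout libraries and 71 and 189 in the controls. Their median was then 3423, 3475 and 4347 UMIs in the knockout libraries and 5094 and 3678 in the controls. Those with at least 4000 UMIs, which were compared, were 29, 39 and 49 cells in the knockout libraries and 42 and 79 in the controls. Foxp3 was detected in 4.55%, 8.11% and 2.46% of members in the knockout libraries and in 6.18% and 9.20% in the controls (p = 0.4, exact permutation test, adjusted p = 0.8 over 8 genes). The macrophages gave 6.90%, 2.56% and 4.08% in the knockout libraries and 2.38% and 6.33% in the controls. These percentages rest on very few macrophages with a Foxp3 UMI, so whether Foxp3 in members lay above or below them cannot be said. Thinning left out 0, 7 and 11 members in the knockout libraries and 5 and 12 in the controls. Il1rl1 was detected in 15.2%, 9.31% and 5.17% of members in the knockout libraries and in 4.28% and 2.30% in the controls (p = 0.2, the smallest this exact permutation test can give, adjusted p = 0.8), and in 13.8%, 12.8% and 6.12% of the macrophages in the knockout libraries and 7.14% and 1.27% in the controls. The macrophages lay above members in knockout 2, knockout 3 and control 1 and below them in knockout 1 and control 2. How much of the Il1rl1 in members was free RNA was not tested.

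Of the 8 genes, Cxcr3 was detected most often. Cxcr3, a chemokine receptor of type 1 helper cells, was detected in 52.3%, 45.8% and 46.8% of members in the knockout libraries and in 53.2% and 44.8% in the controls (p = 1, exact permutation test). The macrophages gave 20.7%, 28.2% and 40.8% in the knockout libraries and 16.7% and 29.1% in the controls, below the members of the same library in each case. Tbx21, which encodes the type 1 master factor T-bet, was detected in 31.8%, 33.7% and 32.5% in the knockout libraries and in 27.1% and 26.8% in the controls (p = 0.2, adjusted p = 0.8, exact permutation test). The groups did not overlap for Tbx21. The macrophages gave 31%, 30.8% and 22.5% in the knockout libraries and 7.14% and 19.0% in the controls. In knockout 1 and 2 members were thus within 3 percentage points of those few macrophages. Gata3, the type 2 factor, was detected in 28.0%, 21.7% and 31.8% of members in the knockout libraries and in 28.7% and 24.1% in the controls. Cd8a was detected in 0.76%, 0.95% and 1.72% in the knockout libraries and in 5.23% and 0.77% in the controls, where control 1 was highest, and Ccr7 in 4.55%, 3.58% and 9.11% in the knockout libraries and in 4.75% and 9.96% in the controls. None of the 8 genes passed the exact permutation test, and adjusted p-values ran from 0.8 to 1.

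Between genotypes, no gene passed in members. Of 11363 genes tested with edgeR on UMIs summed per library, 0 passed at an adjusted p of 0.05 (percent called 0), 700 had an unadjusted p below 0.05 (6.16%), and the smallest adjusted p was 0.143. DESeq2 called 42 (0.37%), 36 higher (0.317%) and 6 lower (0.0528%) in knockout. Mki67, which the rule required, is given as a description. It had 2476, 2105 and 2198 CPM in knockout members and 2075 and 2472 CPM in control members, a log2 fold change of −0.06 (SE 0.13) whose sign changes with the settings given in the closing section. Top2a, which the rule did not use, had 1931, 1714 and 1705 CPM in knockout members and 1589 and 1882 CPM in control members, a log2 fold change of −0.01 (SE 0.12) whose sign changes likewise. On simulated counts of these libraries (11208 genes), edgeR recovered 22% of the genes changed 1.5-fold, 86% of those changed 2-fold, 96% at 3-fold and 100% at 4-fold. The changed genes were drawn only from those above a floor in mean CPM. The recovery thus does not cover low genes, among them Arg1, Mertk and Il5ra, which are named below. No simulated library stood apart, as control 1 did in histone genes, so recovery in these data may differ. Tbxas1, Lilr4b and Frmd4b, named below, did not pass at log2 fold changes of 1.36, 1.38 and 1.08.

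The leading genes that were higher in knockout members were named by rank of p among genes whose libraries do not overlap between groups, which held for 1322 of the 11363 genes on the higher side (11.6%) and 1181 on the lower (10.4%). Tbxas1, thromboxane A synthase, had 26.5, 34.9 and 31.1 CPM in knockout members and 12.1 and 11.1 CPM in control members. Its log2 fold change was 1.36 (SE 0.18, edgeR adjusted p = 0.143). Plxna4, a receptor subunit for semaphorins, had 11.1, 16.2 and 14.5 CPM in knockout members and 2.14 and 3.51 CPM in control members, a log2 fold change of 2.40 (SE 0.32, edgeR adjusted p = 0.143). Lilr4b and Lilrb4a, near-identical inhibitory receptors whose reads may have been split, had log2 fold changes of 1.38 and 1.17. Rnls (renalase), Frmd4b (a FERM domain protein), Arg1 (arginase 1) and Mertk (a receptor of phagocytes for dying cells) completed the 8, with log2 fold changes of 1.21, 1.08, 3.54 and 3.40. DESeq2 called all 8, and edgeR called none of them.

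Several of these genes are known from macrophages, and macrophage markers moved with them. All 9 macrophage markers had a positive fold change in members, with a median log2 of 0.89; 6 had an unadjusted edgeR p below 0.05 and none an adjusted one. Without control 2 the median was 1.90. Their summed level was 977, 1395 and 1807 CPM in knockout members and 466 and 950.4 CPM in control members, and none of the 9 was at 0 in any library. In T cells without Mki67 the sum was 674, 756 and 958 CPM in the knockout libraries and 479.5 and 983 CPM in the controls. C1qa, a complement subunit made by macrophages, had 134, 280.5 and 276 CPM in knockout members and 60.1 and 193 CPM in control members, and the groups overlapped. Without the members that had 0.5% or more non-T UMIs, the 9 markers still had positive fold changes (median 0.80), and no gene passed. The log2 fold changes of the 8 leading genes were then 1.01 for Tbxas1, 1.10 for Rnls, 2.47 for Plxna4, 1.47 for Lilr4b, 0.70 for Frmd4b, 2.76 for Arg1, 1.18 for Lilrb4a and 2.83 for Mertk. Without members that had UMIs of 2 or more non-T markers, Frmd4b had 0.11, Lilrb4a 0.99, Rnls 1.12 and Lilr4b 3.26, and the other 4 were too low to be tested.

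Genes lower in knockout members did not pass either. Frmd5, a FERM domain protein, had 11.7, 10.5 and 7.72 CPM in knockout members and 20.4 and 32.1 CPM in control members, a log2 fold change of −1.43 (SE 0.25, edgeR adjusted p = 0.288). Ahsa1, which activates the chaperone HSP90, had 47.1, 44.1 and 34.8 CPM in knockout members and 64.2 and 71.5 CPM in control members, a log2 fold change of −0.74 (SE 0.14, edgeR adjusted p = 0.337). For both genes every knockout library was below both controls. Dynlt1f, Ifit3, Hmga1, Cacna1e, Il5ra and Hist1h4n completed the 8, with log2 fold changes of −1.09, −0.77, −1.67, −3.81, −3.88 and −2.11. Without control 1, Cacna1e had −1.99, Hist1h4n −1.40 and Hmga1 −1.02. Il5ra rested on 0, 0 and 2 UMIs in the knockout libraries and 35 and 7 in the controls. Foxp3 had 25.9, 25.1 and 10.4 CPM in knockout members and 30.4 and 29.4 CPM in control members, a log2 fold change of −0.62 (SE 0.32, edgeR adjusted p = 0.804), with knockout 3 lowest and no overlap.

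Gene lists were read as counts, beside 48.8% of all genes with a positive fold change and 3.69% and 2.47% with an unadjusted edgeR p below 0.05 on the higher and the lower side. Replication lists leaned to lower values in knockout members. Of 22 licensing genes, 1 had a positive fold change (median log2 −0.23) and 5 had an unadjusted p below 0.05 on the lower side. Of 34 DNA synthesis genes, 1 was positive (median −0.19) and 4 were below 0.05. Mcm5, whose values are given above, had a log2 fold change of −0.37 (SE 0.13) with no overlap between groups. The medians stayed below 0 in both lists without any 1 library, with cells thinned to 4000 UMIs and with the even-histone gate.

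Mitosis genes did not hold a direction. Of 69, 17 had a positive fold change and the median log2 was −0.06, but 46 of 69 were positive with cells thinned to 4000 UMIs and 47 of 69 when 2 of the 5 histone genes were enough. Ccnb2, a mitotic cyclin, had 122, 111 and 121 CPM in knockout members and 165 and 128 CPM in control members, a log2 fold change of −0.37 (SE 0.13). Of 54 histone genes that the rule did not use, 8 were positive (median −0.39) and 15 had an unadjusted p below 0.05 on the lower side. Without control 1 the median was −0.13, 17 of 54 were positive and 1 had an unadjusted p below 0.05. Among the genes of the rule, given as a description, Hist1h2ap had a log2 fold change of −3.33 with all libraries and of −0.05 without control 1.

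A few genes of quiescence, survival and cytokine signalling had values without overlap on the higher side. Txnip, which limits glucose uptake, had 167, 175 and 191 CPM in knockout members and 109 and 120.3 CPM in control members, a log2 fold change of 0.58 (SE 0.12, edgeR adjusted p = 0.368). Bcl2, a survival protein, had 388, 246 and 273 CPM in knockout members and 177 and 154 CPM in control members, a log2 fold change of 0.81 (SE 0.19, edgeR adjusted p = 0.505). Cish, an inhibitor of cytokine signalling, had 106, 90.1 and 102 CPM in knockout members and 37.7 and 54.5 CPM in control members, a log2 fold change of 1.09 (SE 0.17, edgeR adjusted p = 0.159). In all 3 genes every knockout library was above both controls, DESeq2 called each, and they were picked here after their values were seen. Over the whole list of brakes, 12 of 18 genes were positive with a median of 0.04.

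Helper lists differed in their balance. Of 10 type 17 genes, 9 were positive (median 0.59) and 3 had an unadjusted p below 0.05, but without knockout 1 only 6 of 10 were positive (median 0.24). Tmem176b, an ion channel of type 17 and myeloid cells, had 146, 82.6 and 88.3 CPM in knockout members and 48.1 and 67.1 CPM in control members, a log2 fold change of 0.83 (SE 0.25, edgeR adjusted p = 0.611). Of 19 type 1 genes, 13 were positive (median 0.16) and 5 had an unadjusted p below 0.05. Il18r1, the receptor for interleukin 18, had 262, 336 and 119 CPM in knockout members and 97.6 and 96.8 CPM in control members, a log2 fold change of 1.24 (SE 0.36, edgeR adjusted p = 0.592). Of 15 Treg genes, 7 were positive (median −0.0021). Of 8 type 2 genes, 5 were positive (median 0.15), and without control 1 4 of 9 were (median −0.16). No gene of these lists passed.

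**Figure D5:**
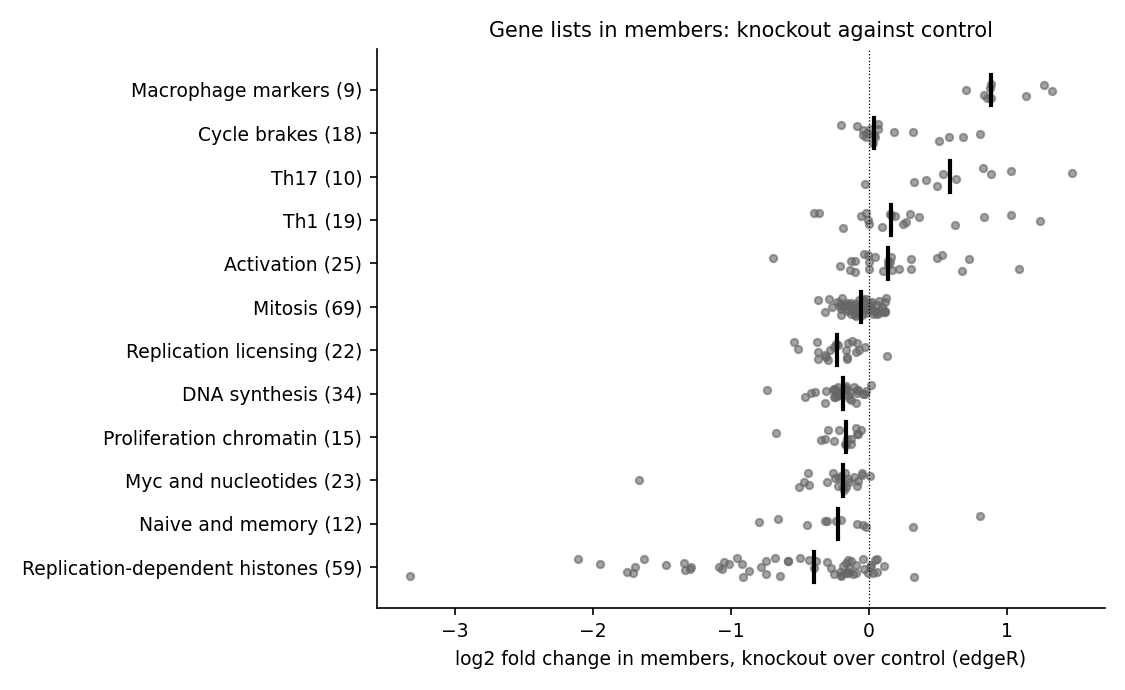
Log2 fold change (horizontal axis) of each gene of 12 lists in members, knockout over control, from edgeR; bars are list medians and brackets hold the genes tested (the 59 histone genes include the 5 of the rule). No gene passed; macrophage markers (median 0.89) lie right of 0, replication lists (−0.23 and −0.19) lie left, and the mitosis median (−0.06) changes sign with thinning to 4000 UMIs.

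The genotype difference in members was then set against that in T cells without Mki67 of the same libraries, with the library as a term. In those T cells 0 of 13346 genes passed by edgeR. Of 13053 genes, 75 (0.575%) had a difference that passed, 52 higher (0.398%) and 23 lower (0.176%) in members; DESeq2 called 83 (0.636%), 54 higher (0.414%) and 29 lower (0.222%). The 8 with the smallest p on the higher side were App, H2-Aa, H2-Eb1, Tyrobp, Selenop, H2-Ab1, Spi1 and Mtss1. Of these, Tyrobp and H2-Ab1 are markers of non-T cells in the lists used. H2-Aa, a chain of MHC class II, had 514, 512 and 369 CPM in knockout members and 376 and 321 CPM in control members. In T cells without Mki67 it had 279.6, 237 and 192 CPM in the knockout libraries and 349.5 and 322 CPM in the controls, so its genotype difference was of opposite sign in the 2 classes (difference of log2 fold changes 0.91, SE 0.09, edgeR adjusted p = 0.00165). App, the amyloid precursor protein, had 43.0, 56.9 and 46.0 CPM in knockout members and 24.7 and 25.3 CPM in control members, and 25.3, 36.1 and 30.6 CPM (knockout) and 38.1 and 36.9 CPM (control) without Mki67. Without the cells that had 0.5% or more non-T UMIs, 18 genes passed, and H2-Aa and App were among them. Selenop and Spi1 then did not pass (edgeR adjusted p = 0.0538 and 0.0780). The 0.5% limit counted no UMIs of H2-Aa, H2-Eb1, H2-Ab1 or Cd74, so it was not set on MHC class II RNA. From which cells that RNA came was not tested.

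Replication genes were among those lower in the same comparison. Mcm3, a helicase subunit, had 146, 156 and 177 CPM in knockout members and 168 and 234 CPM in control members, and 35.9, 35.7 and 52.1 CPM (knockout) and 26.9 and 42.5 CPM (control) without Mki67, a difference of −0.60 on the log2 scale. Mcm6 and Hells, a chromatin remodeller, differed by −0.47 and −0.60. These 3 genes passed by edgeR with all libraries but not without control 1, where 26 genes passed. Bcl2 differed by 0.56 and also did not pass without control 1. Immunoglobulin genes took the largest negative values, and 5 cells held 93.6% of the 6172 Ighm, Igkc, Igha and Jchain UMIs of members in knockout 1 and 97.6% of the 152752 in control 1. Against the other Mki67 T cells, in which 0 of 12889 genes passed, the genotype difference of members stood apart for 1 of 12662 genes (0.0079%), the immunoglobulin segment Igkv14-126.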

How the data were processed

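The deposited matrices give unnormalized UMI counts, which per the file headers came from Cell Ranger 8.0.0. Cell Ranger 8.0, mm10 and Seurat 5.1.0 are named in the submitters' processing notes. Depth per library is given above. Barcodes with at least 500 genes and under 10% mitochondrial UMIs were kept. Members, gene lists and tests were chosen with earlier results of these data known.

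Sums of UMIs per library and cell class entered edgeR 4.0.16 (quasi-likelihood test, TMM, filterByExpr, no block, Benjamini-Hochberg threshold 0.05); DESeq2 1.42.0 was an alternative. The interaction had the library as a term. CPM are of plain sums, whereas fold changes are TMM-scaled. Shares were compared by exact permutation over libraries. Thinning drew UMIs without replacement. Genes named between genotypes are, per direction, up to 12 that passed, filled up to 8 by p among those whose libraries do not overlap, without antigen receptor segments, unnamed models, sex-linked, ribosomal or non-T marker genes; for the interaction, up to 8 per direction; examples from lists, Cish, Mcm3, Mcm6, Hells and Bcl2 were picked after their values were seen. Genes named against T cells without Mki67 are those with the highest lowest-of-5-libraries difference or members of lists.

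The tests were tested on simulated data: in members 9 of 161 calls were false, and in the interaction 12 of 199 (12822 genes, with 78% recovered at 1.5-fold, 96% at 2-fold, 100% at 3-fold). In both, the changed genes were drawn only from those above a floor in mean CPM, and no library was made to stand apart. Alternatives were DESeq2, RLE factors, no filter, a replicate block, leaving out each library, other gates, depths and cell filters (1000 genes and 5%), and removal of cells with non-T, CD8 or most UMIs; the even-histone gate, the 0.5% non-T limit, removal of the 10% largest members and omission of histone genes were added after the data were seen. Positions come from GENCODE M21. Tools were matplotlib 3.10.9, pandas 2.3.3, scipy 1.17.1 and numpy 2.4.6 in Python 3.11.15, and R 4.3.3. Results of a few tested genes are not reported here.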

Additional observations from a re-analysis of the deposited data

Results flagged for a closer look

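The genotype difference of 15 genes in members differed from that in T cells without Mki67 by the edgeR interaction test, and values are differences of log2 fold changes. Higher in members were App (1.24), Mtss1 (1.01), H2-Ab1 (0.99), Tyrobp (0.94), Spi1 (0.93), H2-Aa (0.91), H2-Eb1 (0.85) and Selenop (0.82). Tyrobp is a non-T marker, as are Cd68, Fcer1g and C1qc, which also passed on the higher side. H2-Ab1 and Cd74, which passed too, are dendritic cell markers in the lists used. The part of non-T RNA in these differences was not tested. Lower in members were Actg1 (−0.49), Ybx3 (−0.57), Ttc39c (−0.62), Klrg1 (−1.69), Igha (−4.91), Jchain (−5.54) and Igkv1-110 (−13.51). The last is fitted against libraries at 0 and is no bound. Jchain and Igha were not called by DESeq2 (DESeq2 adjusted p = 0.622 and 0.72). Against the other Mki67 T cells, Igkv14-126 differed by −12.90, also fitted against libraries at 0. Without control 1, none of the lower ones passed, and of the higher ones App, H2-Aa, H2-Eb1, H2-Ab1, Tyrobp and Selenop did.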

How the results depend on the processing

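The difference in share kept its sign in every alternative except without knockout 3 (range over left-out libraries −0.0443 to 3.53 percentage points). Genes called between genotypes in members, 0 by edgeR, were 42 by DESeq2, 401 without a filter on low counts and 0 to 29 with a library left out (29 without control 2, 1 without control 1). With the replicate number as a block 5 genes passed. Same-numbered libraries correlated at 0.167 and 0.0512 in their deviations from the group mean. With 2 controls these deviations mirror each other, so the check cannot tell whether same-numbered libraries belong together, and the labels do not pair them. The interaction against T cells without Mki67, 75 genes, gave 545 without a filter, 1 when 2 histone genes were enough, 229 with the even-histone gate, 18 without cells of 0.5% or more non-T UMIs and 17 to 89 with a library left out (17 without knockout 2, 26 without control 1, 33 without knockout 3). Against other Mki67 T cells, 1 gene became 0 by DESeq2, with 2 histone genes and without non-T cells, 270 without a filter and 0 to 13 with a library left out (13 without control 2). Signs turned, always without a call, for these: percentage points of Cxcr3 were 3.79 at 2000 UMIs and 3.78 without thinning (−4.91 to 3.47 with a library left out), of Gata3 −3.94 without thinning (−1.57 to 3.46), of Ccr7 0.140 with the even-histone gate (−4.22 to 0.996) and of Cd8a −4.08 to 0.379. For log2 fold changes in members, with 2 histone genes Mki67 was 0.0396 and Top2a 0.104; without members with 2 or more non-T markers Mki67 was 0.111, Hist1h1b 0.106, Hist1h3c 0.122 and Top2a 0.0305; at 4000 UMIs they were 0.0687, 0.0528, 0.0508 and 0.103; without the largest members Mki67 was 0.000433 and Top2a 0.0382; below 0.5% non-T UMIs they were 0.00658 and 0.0564. Top2a was 0.0447 with the even-histone gate and 0.0165 under the replicate block. With a library left out, Mki67 ran from −0.18 to 0.0719, Hist1h1b from −0.35 to 0.21, Hist1h3c from −0.32 to 0.0518, Top2a from −0.13 to 0.12 and the Igha interaction from −9.71 to 0.46. The cause was not tested. In simulation, where no library was made to stand apart, the member test missed most changes of 1.5-fold, and low genes were not among those changed.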
